A study of Mus musculus with 6 samples.

Results

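Triglyceride synthesis and glycerol supply were followed through 10 genes, *Gpam*, *Gpat3*, *Agpat2*, *Lpin1*, *Lpin2*, *Dgat1*, *Dgat2*, *Pck1*, *Gpd1* and *Aqp7*, taken by gene symbol from a table of 37384 genes. All 10 were among the 15674 genes with enough counts to be tested. The libraries were made from floated adipocytes of the inguinal subcutaneous white adipose tissue (scWAT) of male mice at postnatal day 7 (P7). The 3 L1L2-FF libraries came from Lats1f/fLats2f/f mice, and the 3 L1L2-AKO libraries from Lats1f/fLats2f/fAdipoqCre mice, so that both genotypes carried floxed alleles of the Hippo pathway kinases *Lats1* and *Lats2* and differed by a Cre recombinase under the *Adipoq* promoter, which is active in adipocytes. Each library was a separate pool of cells from 4 mice, so differences between single mice are averaged within it. The comparison asked how these transcripts differed in adipocytes in which Cre was directed at both kinase genes.

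Fat cells store energy as triglyceride, which is built on glycerol 3-phosphate by a chain of enzymes in and around the endoplasmic reticulum. Glycerol 3-phosphate acyltransferases (GPAT) add the first fatty acid, acylglycerophosphate acyltransferases (AGPAT) the next, lipins remove the phosphate to give diacylglycerol, and diacylglycerol acyltransferases (DGAT) add the last fatty acid. Adipocytes have little glycerol kinase, so they make most of their glycerol 3-phosphate from sugar or from pyruvate, through cytosolic phosphoenolpyruvate carboxykinase (*Pck1*) and glycerol 3-phosphate dehydrogenase (*Gpd1*), and let glycerol cross the membrane through the channel *Aqp7*.

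Total counts ranged from 30548473 to 32107917 per library. The lowest count of any of the 10 genes in any library was 400. Levels are given as CPM, counts scaled to an equal library total, after TMM normalization, which assumes most genes did not change. Genotypes were compared by the quasi-likelihood test of edgeR (two-sided), p-values were adjusted over all tested genes by the method of Benjamini and Hochberg, and 0.05 was the threshold. *Lats1* was at 76.1, 94.3 and 78.4 CPM in L1L2-FF and at 38.9, 41.2 and 40.5 CPM in L1L2-AKO, a log2 fold change of -1.04 (SE 0.118, edgeR adjusted p = 0.00131). *Lats2* went against the label, at 74.9, 85.7 and 68.5 CPM in L1L2-FF and 96.2, 126 and 135 CPM in the libraries labelled L1L2-AKO (log2 fold change 0.64, SE 0.156, edgeR adjusted p = 0.0278). Without L1L2-FF replicate 1 or 3, or L1L2-AKO replicate 2 or 3, the *Lats2* difference of 0.55 to 0.62 had an edgeR adjusted p of 0.0651 to 0.104. Counts per gene do not separate floxed exons from the others. Each direction below is therefore that of the libraries labelled L1L2-AKO relative to L1L2-FF. The first principal component carried 61.8% of the variance and split the genotypes, and the next carried 17.2% and set L1L2-FF replicate 2 apart from L1L2-FF replicate 3.

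The label of the cells was checked against marker genes. Of 14 mature adipocyte genes none was at 0 in any library, and the most abundant were *Lpl*, *Car3* and *Fabp4*, a lipoprotein lipase, a carbonic anhydrase and a fatty acid binding protein. Their values were 8400.3 to 13956 CPM in L1L2-FF and 14180.0 to 20189 CPM in L1L2-AKO for *Lpl*, 11973 to 21448 and 5757 to 8205 CPM for *Car3*, and 6797 to 9055 and 6211 to 6826 CPM for *Fabp4*. The ranges of *Car3* and of *Lpl* were apart between the genotypes, in opposite directions, and those of *Fabp4* overlapped slightly.

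Across the 10 genes, 7 fell and 0 rose in L1L2-AKO. By edgeR at an unadjusted p under 0.05, the counts were 8 lower and 0 higher, and after adjustment DESeq2 had 8 lower, limma-voom 7 lower and both 0 higher. Over all tested genes, 16.5% passed the same threshold in either direction, 7.18% as lower and 9.28% as higher. The 7 were *Gpat3*, *Pck1*, *Dgat2*, *Gpd1*, *Lpin1*, *Gpam* and *Aqp7*, with log2 fold changes from -1.73 to -0.55, and in the same 7 every L1L2-AKO library lay below every L1L2-FF library, as in 18.4% of all tested genes (18% did not overlap in the other direction). *Dgat1*, *Agpat2* and *Lpin2* did not pass, with log2 fold changes of -0.62, -0.80 and 0.13. The median of the 10 was -0.93, beside -0.02 for all tested genes and -0.64 for the 14 mature adipocyte markers. When the libraries were instead scaled to the mean of the 14 mature adipocyte markers, all genes moved up by 0.96 on the log2 scale, and *Gpam*, *Agpat2*, *Dgat1* and *Aqp7* then had log2 fold changes above 0 (0.09, 0.17, 0.33 and 0.41), while *Gpat3* and *Pck1* still fell and *Lpin2* rose. With scaling to the median of these markers, added after seeing the data, *Gpam* and *Agpat2* lay just below 0 (-0.10 and -0.01). Relative to the median of all genes, 9 of the 10 lay below it under both scalings. Subtracting that median undoes a shift shared by all genes, so this count repeats the TMM result and is no separate check.

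The number of calls depended on single libraries. Removing L1L2-FF replicate 1, L1L2-AKO replicate 2 or L1L2-AKO replicate 3 left 2 calls, removing L1L2-FF replicate 3 left 4, removing L1L2-AKO replicate 1 left 6 and removing L1L2-FF replicate 2 left 7. Of the 10, *Gpat3* and *Pck1* alone kept an edgeR adjusted p under 0.05 in all 6 of these fits, each of which has 1 library fewer to estimate the spread. The fold changes kept their direction for all 10 genes in these 6 fits.

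**Figure D1:**
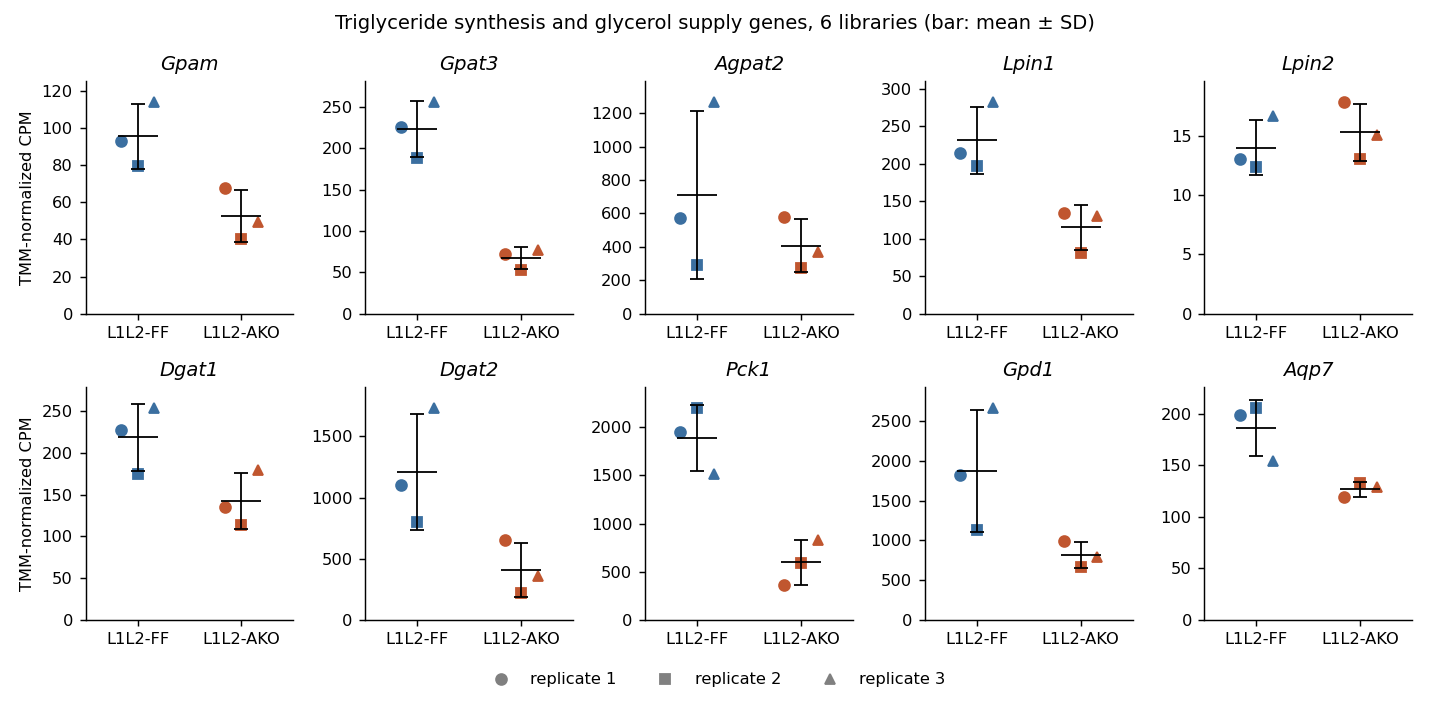
TMM-normalized CPM of the 10 genes in the 3 L1L2-FF (blue) and 3 L1L2-AKO (orange) libraries, each axis starting at 0. Points are libraries, with the symbol giving the replicate, and bars the mean ± SD (n = 3). The points of *Gpat3*, *Pck1*, *Dgat2*, *Gpd1*, *Lpin1*, *Gpam* and *Aqp7* do not overlap between genotypes on this scale, and those of *Agpat2*, *Dgat1* and *Lpin2* do. L1L2-FF replicate 3 (triangle) stands highest among L1L2-FF in 8 of the 10 panels.

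In the libraries labelled L1L2-AKO, 12 of 14 macrophage genes were higher and 0 lower (13 and 0 at an unadjusted p under 0.05, edgeR), and their summed level was 1017 to 1127 CPM against 281 to 544 CPM in L1L2-FF, with none of the 14 at 0 in all libraries. *Mrc1*, *Csf1r* and *Lyz2* were the most abundant, at 239 to 288, 146 to 163 and 143 to 159 CPM in L1L2-AKO, beside 49.3 to 96.3, 43.7 to 94.3 and 50.8 to 99.5 CPM in L1L2-FF. Without L1L2-FF replicate 1, 7 of the 14 were past the threshold. The mature adipocyte genes summed to 33741 to 45567 CPM in L1L2-AKO and 44124 to 59179 CPM in L1L2-FF, and 6 of the 14 were lower (*Adipoq*, *Retn*, *Car3*, *Cfd*, *Slc2a4* and *Acvr1c*) and 0 higher (9 and 0 unadjusted, edgeR). Summed Schwann cell genes were at 161 to 410 CPM in L1L2-AKO and 498 to 1296 CPM in L1L2-FF, with 4 of 7 lower (7 unadjusted, edgeR). In the other lists, 1 of 8 endothelial, 1 of 8 progenitor and fibroblast, 2 of 6 mural and 2 of 5 thermogenic adipocyte genes were lower (2, 4, 4 and 2 at an unadjusted p under 0.05, edgeR). Of the mural genes 1 was higher (2 unadjusted). None of 4 red cell, 4 lymphocyte and 4 tested skeletal muscle genes passed the edgeR threshold (0, 0 and 2 at an unadjusted p under 0.05). In these bulk samples, fewer cells of a type and less RNA per cell cannot be told apart. The part of other cells in the results on the 10 genes was not tested.

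Upstream sequences are shown for genes that stand for the different outcomes: *Gpat3* and *Pck1*, which fell most among the genes with a sequence at hand, *Lpin1* and *Aqp7*, which fell less, and *Lpin2*, which did not pass. They come from the 250 bases before a RefSeq start site on GRCm38.p6, end where an exon of the same gene begins in GENCODE M21, and are written 5′ to 3′ on the gene's strand. The stretches of *Gpat3* and *Lpin2* lie inside the GENCODE span of their gene, and those of *Pck1*, *Lpin1* and *Aqp7* outside it. Of the 10 genes, 7 had 11 promoter windows in all in the RefSeq set, while *Dgat1*, *Dgat2* and *Gpd1* were not matched. Capitals mark the core of a cAMP response element (TGACGT, or ACGTCA on the other strand), a nuclear receptor half-site of the kind PPAR factors bind (AGGTCA or TGACCT) and an E-box (CACGTG).
*Gpat3*, chr5:100845979-100846129, plus strand: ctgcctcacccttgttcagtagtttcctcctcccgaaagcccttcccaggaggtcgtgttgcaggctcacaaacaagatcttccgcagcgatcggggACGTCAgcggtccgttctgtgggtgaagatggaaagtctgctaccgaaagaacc
*Pck1*, chr2:173152823-173153047, plus strand: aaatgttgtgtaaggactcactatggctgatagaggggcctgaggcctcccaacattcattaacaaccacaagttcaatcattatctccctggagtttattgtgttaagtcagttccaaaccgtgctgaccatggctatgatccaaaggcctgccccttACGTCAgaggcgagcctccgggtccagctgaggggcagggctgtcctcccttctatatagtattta
*Lpin1*, chr12:16610967-16611216, minus strand: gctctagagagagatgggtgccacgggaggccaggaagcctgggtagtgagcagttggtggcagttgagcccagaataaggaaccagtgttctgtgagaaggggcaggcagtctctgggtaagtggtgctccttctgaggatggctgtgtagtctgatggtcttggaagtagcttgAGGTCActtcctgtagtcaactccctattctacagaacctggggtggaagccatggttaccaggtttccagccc
*Aqp7*, chr4:41048140-41048386, minus strand: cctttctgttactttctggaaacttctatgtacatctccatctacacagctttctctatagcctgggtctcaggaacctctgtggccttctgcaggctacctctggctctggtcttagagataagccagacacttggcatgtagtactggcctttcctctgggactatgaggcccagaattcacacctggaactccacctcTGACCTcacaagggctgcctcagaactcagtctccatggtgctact
*Lpin2*, chr17:71183282-71183531, plus strand: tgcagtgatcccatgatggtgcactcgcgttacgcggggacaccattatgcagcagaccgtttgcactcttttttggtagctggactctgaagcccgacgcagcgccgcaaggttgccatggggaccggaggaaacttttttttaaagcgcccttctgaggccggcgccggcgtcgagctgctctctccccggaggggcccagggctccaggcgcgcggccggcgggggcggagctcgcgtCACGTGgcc

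The search covered both strands of 300 bases, which add 50 bases past the start. The CRE core was found at 153 bases before the start of *Gpat3* and 91 bases before that of *Pck1*, and also in 1 of the windows of *Gpam*, against 7.51% of 32851 promoters of the same length. The half-site was found in *Lpin1*, in both overlapping windows of *Aqp7* and in *Gpam*, against 16.3% of promoters. The E-box was found in *Lpin2* alone, against 7.15% of promoters. The letters GGAATG, which TEAD factors, the partners of YAP and TAZ, bind, were found in 1 window of *Gpam*, against 14.7% of promoters. That window also held the CRE core and the half-site, and *Gpam*, which fell, is not among the sequences shown. A tandem of half-sites with any letter in place of their T and 1 letter between them (AGGNCANAGGNCA, which can hold the half-site above, 0.38% of promoters), a sterol response element (TCACNCCAC, 1.24%) and a TATA box (TATAAA, 13.6%) were in none of the 11 windows. A GC box (GGGCGG, 35.7% of promoters) was in a window of *Agpat2*, *Gpam*, *Gpat3*, *Lpin2* and *Pck1*, and a C/EBP site (TTGCNNAA, 10.8%) in a window of *Gpam* and *Lpin2*; neither is in capitals above. These matches describe the letters and not binding.

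The GPAT genes act at the first acylation. *Gpat3* (chromosome 5, 100845713 to 100899102 on the plus strand, mm10, GENCODE M21), an acyltransferase of the endoplasmic reticulum that appears during fat cell differentiation, was at 225, 188 and 256 CPM in L1L2-FF and at 72.6, 52.3 and 77.1 CPM in the libraries labelled L1L2-AKO. The groups were far apart, with the highest L1L2-AKO value under the lowest L1L2-FF value. *Gpat3* fell from 223 ± 34.0 to 67.3 ± 13.2 CPM (SD, n = 3 each), 3.31-fold, a log2 fold change of -1.73 (SE 0.185, edgeR adjusted p = 0.0011). Leaving out 1 library raised the edgeR adjusted p of *Gpat3* to at most 0.00805. Of its 50-base stretches 29% also occur in overlapping transcripts, mainly *4930458D05Rik* on the opposite strand, whose own counts were 64 to 349 per library.

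*Gpam* (chromosome 19, 55067268 to 55127238, minus strand), which encodes the mitochondrial enzyme GPAT1, was at 92.9, 79.5 and 114 CPM in L1L2-FF and at 67.8, 40.1 and 49.5 CPM in L1L2-AKO. All L1L2-AKO libraries were lower, with L1L2-AKO replicate 1 the nearest to L1L2-FF. Its log2 fold change was -0.86 (SE 0.211, edgeR adjusted p = 0.0287), and the edgeR adjusted p was 0.0753 to 0.109 without L1L2-FF replicate 1 or 3 or L1L2-AKO replicate 2 or 3. Compared on CPM per kb of exon, *Gpat3* made up 64.4% ± 1.00 of the transcripts of the 4 GPAT genes in L1L2-FF and 47.1% ± 3.17 in L1L2-AKO (SD, n = 3 each). *Gpam* made up 14.4% ± 0.78 and 19.2% ± 2.73, and *Gpat4*, another enzyme of the endoplasmic reticulum, 21.1% ± 1.75 and 33.5% ± 2.59. These shares do not depend on the scaling of the libraries. Within a library, log2 CPM of *Gpam* minus that of *Gpat3* was -1.28, -1.24 and -1.17 in L1L2-FF and -0.10, -0.38 and -0.64 in L1L2-AKO, a shift of 0.85 without overlap (two-sided exact permutation p = 0.1, the lowest that 3 against 3 can give, and 0.2 after adjustment over 4 pairs).

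A transcript difference at the next acylation was not resolved. *Agpat2* (chromosome 2, 26593057 to 26604417, minus strand), whose loss causes generalized lipodystrophy, was at 574, 292 and 1266 CPM in L1L2-FF and at 580, 273 and 370 CPM in L1L2-AKO. L1L2-FF replicate 3 alone lay above all other libraries, and it was 4.34 times L1L2-FF replicate 2. The log2 fold change was -0.80 (SE 0.498, 95% interval -1.95 to 0.35, edgeR adjusted p = 0.328), and -0.09 without L1L2-FF replicate 3 (edgeR adjusted p = 0.908). The biological coefficient of variation of *Agpat2* was 0.419, above that of 95% of the tested genes, and the interval holds both 0 and a fall larger than that of *Lpin1*. The other AGPAT genes *Agpat1*, *Agpat3*, *Agpat4* and *Agpat5* had log2 fold changes of -0.10, 0.12, -0.16 and -0.39, none past the threshold. Per kb of exon *Agpat2* made up 78.7% ± 9.83 of the 5 AGPAT genes in L1L2-FF and 71.8% ± 6.53 in L1L2-AKO.

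The lipins, which turn phosphatidate into diacylglycerol, went apart. *Lpin1* (chromosome 12, 16535669 to 16610966, minus strand), the main lipin of fat tissue, was at 215, 197 and 282 CPM in L1L2-FF and at 134, 80.9 and 131 CPM in L1L2-AKO. Every L1L2-AKO library was below every L1L2-FF library. *Lpin1* fell 2.01-fold, a log2 fold change of -1.0 (SE 0.223, edgeR adjusted p = 0.0198), and missed the threshold narrowly without L1L2-FF replicate 1, L1L2-AKO replicate 2 or L1L2-AKO replicate 3 (edgeR adjusted p = 0.0573, 0.051 and 0.0506).

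*Lpin2* (chromosome 17, 71182560 to 71249817, plus strand), a lipin best known from liver and macrophages, was at 13, 12.4 and 16.7 CPM in L1L2-FF and at 17.9, 13 and 15.0 CPM in L1L2-AKO. The ranges overlapped almost entirely. The log2 fold change was 0.13 (SE 0.179, 95% interval -0.28 to 0.54, edgeR adjusted p = 0.687), an interval that does not hold the fall of *Lpin1*. Within a library, log2 CPM of *Lpin1* minus that of *Lpin2* was 4.04, 3.98 and 4.08 in L1L2-FF and 2.90, 2.63 and 3.11 in L1L2-AKO, a shift of -1.15 without overlap (two-sided exact permutation p = 0.1, the lowest possible, and 0.2 after adjustment over the 4 pairs). Per kb of exon *Lpin1* made up 90.6% ± 0.33 of the 3 lipins in L1L2-FF and 85.4% ± 2.92 in L1L2-AKO, and *Lpin2* 4.36% ± 0.13 and 9.18% ± 1.25.

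Of the genes for the last acylation, *Dgat2* fell (chromosome 7, 99153658 to 99182719, minus strand), the acyltransferase that favours newly made fatty acids. It was at 1104, 796 and 1730 CPM in L1L2-FF and at 650, 220 and 359 CPM in L1L2-AKO. The genotypes did not overlap, but each held a wide range, 2.17-fold in L1L2-FF and 2.96-fold in L1L2-AKO. *Dgat2* had a log2 fold change of -1.56 (SE 0.421, edgeR adjusted p = 0.0405), and an edgeR adjusted p of 0.0988 to 0.14 without L1L2-FF replicate 1 or 3 or L1L2-AKO replicate 2 or 3.

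*Dgat1* (chromosome 15, 76502015 to 76511953, minus strand), an enzyme of the same reaction from an unrelated protein family, was at 227.4, 175 and 254 CPM in L1L2-FF and at 135, 114 and 179 CPM in L1L2-AKO. L1L2-AKO replicate 3 lay just above L1L2-FF replicate 2. The log2 fold change was -0.62 (SE 0.203, edgeR adjusted p = 0.0761). *Dgat1* lay on the edge of the threshold and passed it with library size alone as the scaling (edgeR adjusted p = 0.035), in DESeq2's Wald test (adjusted p = 0.0383) and without L1L2-FF replicate 2 (edgeR adjusted p = 0.0344). Log2 CPM of *Dgat1* minus that of *Dgat2* shifted by 1.01, with an overlap between the genotypes (exact permutation test, two-sided, p = 0.2, adjusted p = 0.267). Together, the transcripts of both genes per kb of exon were at 38.7% of the L1L2-FF mean in L1L2-AKO, beside 41.2% for the GPAT genes, 52.6% for the lipins and 64.8% for the AGPAT genes. The last of these rested on L1L2-FF replicate 3, without which it was 97.1%. Without that library the DGAT genes were at 48.0%, the GPAT genes at 44.0% and the lipins at 59.0%, so the order of the DGAT and GPAT genes also depended on it.

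**Figure D2:**
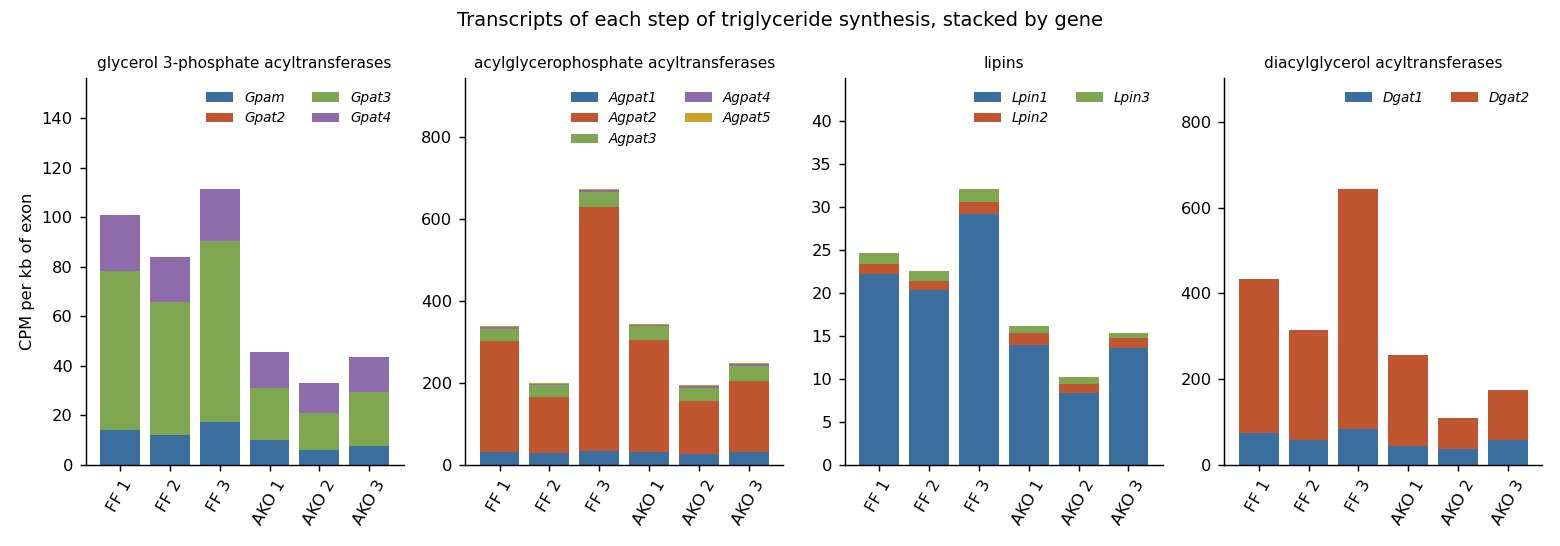
CPM per kb of exon (GENCODE M21) of the genes of each step of triglyceride synthesis, stacked by gene, in the 3 L1L2-FF (FF) and 3 L1L2-AKO (AKO) libraries. *Gpat3*, *Agpat2*, *Lpin1* and *Dgat2* take the largest part of their step in every library, and the GPAT, lipin and DGAT stacks are lower in each L1L2-AKO library than in each L1L2-FF library, whereas the AGPAT stacks overlap. Heights depend on the scaling of the libraries, and the shares of a stack do not.

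Of the genes for glycerol 3-phosphate, *Pck1* and *Gpd1* fell. *Pck1* (chromosome 2, 173153048 to 173159273, plus strand), the enzyme that commits pyruvate to glyceroneogenesis in fat, was at 1954, 2198 and 1517 CPM in L1L2-FF and at 366, 593 and 828 CPM in L1L2-AKO. The gap between the genotypes was wide, and L1L2-AKO replicate 1 had the lowest value. *Pck1* fell 3.17-fold, a log2 fold change of -1.67 (SE 0.302, edgeR adjusted p = 0.00878), and kept an edgeR adjusted p of at most 0.0446 with each library left out.

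*Gpd1* (chromosome 15, 99717515 to 99725005, plus strand), which reduces dihydroxyacetone phosphate to glycerol 3-phosphate, was at 1820, 1137 and 2664 CPM in L1L2-FF and at 996, 660 and 795 CPM in L1L2-AKO. L1L2-FF replicate 2 was the nearest to L1L2-AKO but did not overlap with it. The log2 fold change of *Gpd1* was -1.20 (SE 0.312, edgeR adjusted p = 0.0361), with an edgeR adjusted p of 0.0771 to 0.134 without L1L2-FF replicate 1 or 3 or L1L2-AKO replicate 2 or 3. Of its 50-base stretches 9.65% overlap with *Gm16537* on the opposite strand, which had 1 to 10 counts. Log2 CPM of *Pck1* minus that of *Gpd1* ranged from -0.81 to 0.95 in L1L2-FF and from -1.44 to 0.06 in L1L2-AKO, a shift of -0.59 within the spread of the libraries (exact permutation test, two-sided, p = 0.4).

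*Aqp7* (chromosome 4, 41033074 to 41048139, minus strand), the channel through which glycerol leaves the fat cell during lipolysis, was at 198, 205 and 154 CPM in L1L2-FF and at 119, 133 and 129 CPM in L1L2-AKO. It had the smallest fall of the 7 and the tightest L1L2-AKO values, 127 ± 7.36 CPM (SD, n = 3). The log2 fold change was -0.55 (SE 0.139, edgeR adjusted p = 0.0309). Leaving out any library but L1L2-FF replicate 3 brought the edgeR adjusted p to 0.0568 to 0.115. *Aqp7* made up 99.5% ± 0.0713 and 99.5% ± 0.173 of the 4 aquaglyceroporin genes per kb of exon, with *Aqp3* and *Aqp9* at or under 0.19 CPM per kb in every library.

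**Figure D3:**
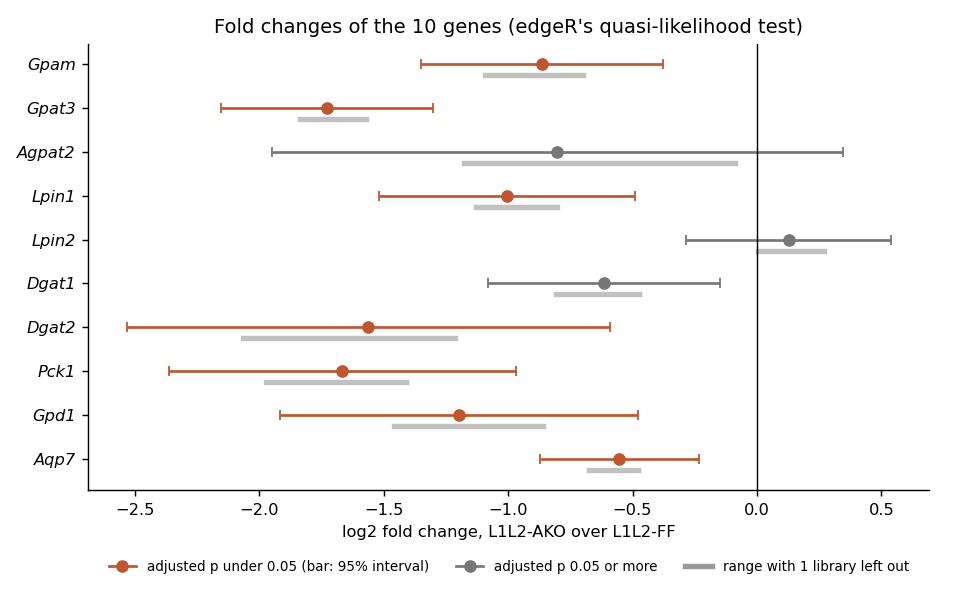
Log2 fold change of the 10 genes, L1L2-AKO over L1L2-FF, on the horizontal axis, with 95% intervals that are not adjusted for the number of genes (orange, edgeR adjusted p under 0.05; dark grey, 0.05 or more) and, as grey bars, the range with 1 library left out. Under TMM scaling all but *Lpin2* lie below 0, from -1.73 for *Gpat3* to -0.55 for *Aqp7*, and under scaling to the mean of the adipocyte markers *Gpam*, *Agpat2*, *Dgat1* and *Aqp7* lie above 0. With the median of the markers *Gpam* and *Agpat2* were just below 0 (-0.10 and -0.01). The range with 1 library left out is widest for *Agpat2* and almost reaches 0, and the 95% interval of *Agpat2* (-1.95 to 0.35) holds 0.

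Per kb of exon, *Gpd1* was the most abundant of the 10 in L1L2-FF at 633 ± 258 CPM per kb, followed by *Pck1* at 551 ± 101, *Dgat2* at 392 ± 154 and *Agpat2* at 334 ± 235 (SD, n = 3), 4 genes whose ranges overlapped from one to the next. *Dgat1*, *Aqp7* and *Gpat3* followed at 71.6 ± 13.1, 65.7 ± 9.73 and 63.6 ± 9.72 CPM per kb and also overlapped. *Lpin1* at 23.9 ± 4.66, *Gpam* at 14.3 ± 2.60 and *Lpin2* at 1.15 ± 0.19 CPM per kb stood apart from each other. In the libraries labelled L1L2-AKO the order was *Gpd1*, *Agpat2*, *Pck1* and *Dgat2* (276 ± 57.1, 191 ± 73.5, 174 ± 67.3 and 133 ± 71.2 CPM per kb), again with overlapping neighbours. *Gpat3*, level with *Aqp7* in L1L2-FF, was at 19.2 ± 3.77 CPM per kb in L1L2-AKO and below *Aqp7* (44.8 ± 2.60) in all 3 libraries. *Lpin1* and *Gpam*, at 11.9 ± 3.09 and 7.87 ± 2.11 CPM per kb, overlapped there.

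Within a genotype the genes did not vary independently. In L1L2-FF, 8 of the 10 genes were lowest in replicate 2 and highest in replicate 3, as were 25.5% of the tested genes, and the same 8 were lowest in L1L2-AKO replicate 2, as were 29.5%. Both held for 11.1% of the tested genes. The ratio of L1L2-FF replicate 3 to replicate 2 was 4.34 for *Agpat2*, 2.34 for *Gpd1* and 2.17 for *Dgat2*, and at most 1.45 for *Gpam*, *Gpat3*, *Lpin1*, *Lpin2* and *Dgat1*. *Pck1* and *Aqp7* went the other way, with ratios of 0.69 and 0.753. L1L2-FF replicate 2 also had the highest summed macrophage (544 CPM), Schwann cell (1296 CPM) and red cell (2333 CPM) genes of the 3 L1L2-FF libraries, the highest progenitor and fibroblast genes (6623 CPM) and the lowest mature adipocyte genes (44124 CPM). L1L2-AKO replicate 2 had the highest macrophage (1127 CPM) and Schwann cell (410 CPM) and the lowest mature adipocyte genes (33741 CPM) of its genotype. Red cell (1430 CPM) and progenitor and fibroblast genes (5270 CPM) were instead highest in L1L2-AKO replicate 3. Summed endothelial and mural genes were highest in replicate 1 of both genotypes (2387 and 1336 CPM in L1L2-FF, 2282 and 977 CPM in L1L2-AKO). The part of these cells in the pattern was not tested.

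The rest of the pathway was read from 50 further genes, of which 47 were tested. Of these 47, 11 fell and 3 rose in the libraries labelled L1L2-AKO. Over all tested genes, 7.18% passed the threshold as lower and 9.28% as higher. A few calls in a short list below therefore say little about that list as a whole. The median over the 47 was a log2 fold change of -0.25. With 1 library removed the 14 calls became 6 to 19 (7 when it was L1L2-FF replicate 1 or L1L2-AKO replicate 3, and 6 when it was L1L2-AKO replicate 2), and scaling to the mean of the adipocyte markers gave 27 higher and 2 lower. Of the 11, *Mogat1*, *Acsl1* and *Chpt1* had log2 fold changes below 0 under that scaling (-1.49, -0.59 and -0.21) and the others above 0. *Gpat2*, *Fitm1* and *Aqp3* were too low to test.

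In the acyltransferase list 1 of 6 tested genes fell, *Gpat4*, from 150, 124 and 142 CPM to 97.9, 80.6 and 92.1 CPM (log2 fold change -0.62, SE 0.127, edgeR adjusted p = 0.0144). Its libraries did not overlap, and the 3 GPAT genes that were tested all fell under TMM scaling, whereas under scaling to the mean of the adipocyte markers *Gpam* (0.094) and *Gpat4* (0.34) lay above 0 and *Gpat3* (-0.78) below it. In the list of phosphatidate phosphatases, which had 6 genes with *Ctdnep1* and *Cnep1r1*, the phosphatase that acts on lipins and its partner, *Lpin3* fell at a low level (4.30 to 5.67 CPM to 2.20 to 3.05 CPM, log2 fold change -0.88, edgeR adjusted p = 0.0338). *Plpp3*, a lipid phosphate phosphatase of the cell surface, rose from 262, 262 and 265 CPM to 661, 641 and 864 CPM, a log2 fold change of 1.46 (SE 0.156, edgeR adjusted p = 0.00111). The other 4 genes did not pass. In *Plpp1* (log2 fold change 0.61, edgeR adjusted p = 0.0594) and *Cnep1r1* (0.20, edgeR adjusted p = 0.246) every L1L2-AKO library lay above every L1L2-FF library.

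At the diacylglycerol step and the exit into the lipid droplet, 2 of 6 tested genes fell. *Mogat1*, which acylates monoacylglycerol, was at a low level and fell from 2.01 to 6.09 CPM to 0.483 to 0.888 CPM (log2 fold change -2.47, SE 0.46, edgeR adjusted p = 0.00979). *Ldaf1*, listed under its older symbol *Tmem159*, a partner of seipin in droplet formation, fell by 0.80 on the log2 scale (edgeR adjusted p = 0.0473), close to the threshold. Seipin itself (*Bscl2*), *Fitm2*, *Mogat2* and *Tmem68* did not pass.

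In the list of glycerol and glycerol 3-phosphate supply, 1 of 10 tested genes passed, and that gene supplies neither glycerol nor glycerol 3-phosphate. *Acsl1*, which activates fatty acids for acylation, was among the most abundant genes of the pathway and fell from 3139, 2635 and 3733 CPM to 1246, 886 and 1139 CPM (log2 fold change -1.54, SE 0.214, edgeR adjusted p = 0.00294). No L1L2-AKO library came near the L1L2-FF range. The mitochondrial *Pck2*, *Gpd1l* and *Gk*, the glycerol kinase, had log2 fold changes of 0.26, -0.13 and 0.55 and did not pass. *Gpd2* missed the threshold narrowly (log2 fold change -0.51, edgeR adjusted p = 0.0512), and its libraries did not overlap between the genotypes. *Pcx*, which feeds *Pck1* with oxaloacetate, was at 1311, 630 and 1579 CPM in L1L2-FF and at 683, 390 and 567 CPM in L1L2-AKO (log2 fold change -1.10, edgeR adjusted p = 0.0661).

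The branch towards phospholipids, which shares phosphatidate and diacylglycerol with triglyceride synthesis, moved both ways. *Cds2*, which draws phosphatidate into CDP-diacylglycerol, rose from 118, 149 and 98.1 CPM to 215, 303 and 368 CPM (log2 fold change 1.28, SE 0.228, edgeR adjusted p = 0.00824). *Selenoi*, an ethanolaminephosphotransferase that uses diacylglycerol, rose by a log2 fold change of 1.05 (edgeR adjusted p = 0.00561). *Chpt1*, a cholinephosphotransferase that also uses diacylglycerol, fell by 1.17 on the log2 scale (edgeR adjusted p = 0.0234). *Chka* and *Ptdss2*, for choline phosphorylation and phosphatidylserine synthesis, fell by 0.53 and 0.56 (edgeR adjusted p = 0.0384 and 0.0106), and 6 of the 11 genes did not pass. Among these 6, *Cds1* was higher (log2 fold change 0.52, edgeR adjusted p = 0.085) and *Pemt* lower (-0.66, edgeR adjusted p = 0.0892), both without overlap.

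Of 8 transcriptional regulators 3 fell. *Pparg*, the nuclear receptor that drives fat cell genes, was at 384, 362 and 379 CPM in L1L2-FF and at 264, 239 and 246 CPM in L1L2-AKO (log2 fold change -0.59, SE 0.115, edgeR adjusted p = 0.0122). The ranges were narrow and apart. *Srebf1* and *Mlxipl*, regulators of lipogenic genes by insulin and sugar, had log2 fold changes of -0.73 and -0.72 (edgeR adjusted p = 0.0267 and 0.0342). *Cebpa*, *Nr1h3*, *Ppargc1a*, *Creb1* and *Insig1* did not pass.

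**Figure D4:**
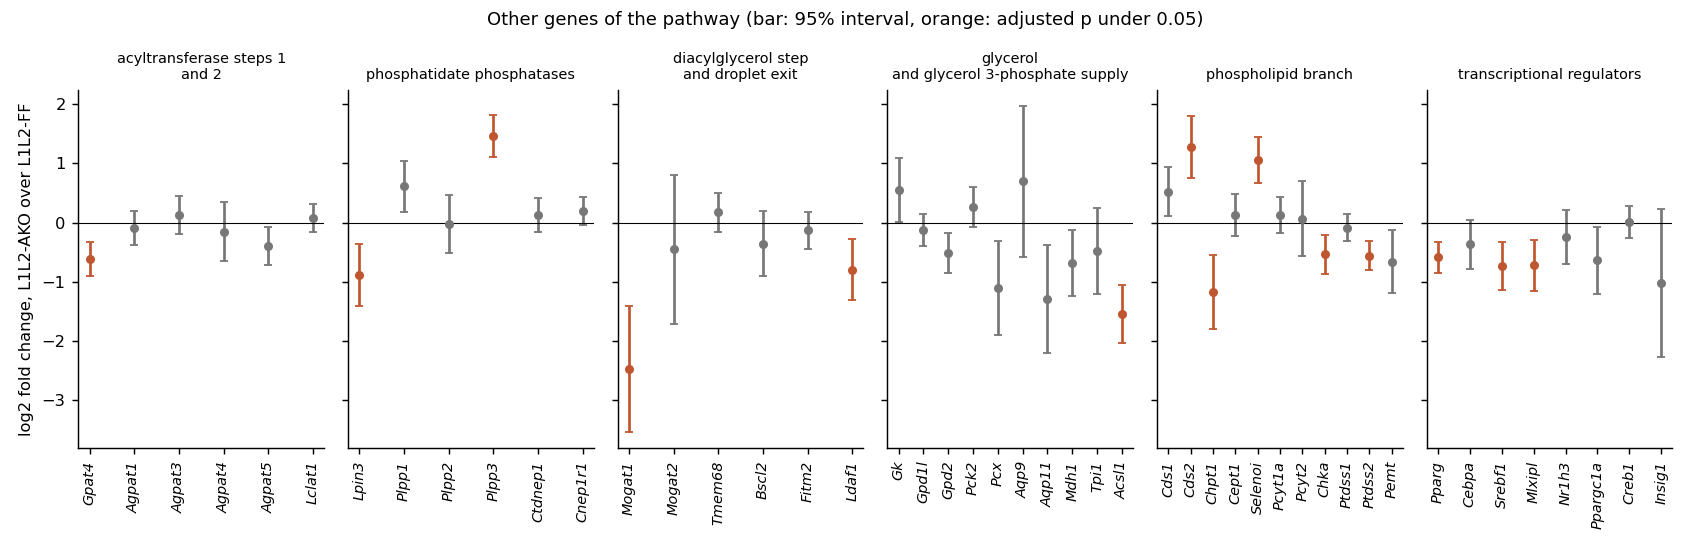
Log2 fold changes, L1L2-AKO over L1L2-FF, of the 47 tested pathway genes in 6 lists under TMM scaling, with 95% intervals (orange, edgeR adjusted p under 0.05). *Plpp3*, *Cds2* and *Selenoi* are the 3 orange points above 0, and 11 lie below it, down to -2.47 for *Mogat1*. Scaling to the mean of the adipocyte markers gave 27 higher and 2 lower.

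The mean profile of the 10 genes over the 6 libraries was compared with 9956 tested genes outside the lists that had an average log2 CPM of at least 3. The nearest were *Acp6*, *Pfkfb1*, *Cib2*, *Nudt18* and *Fbxl4*, with a root mean square distance of 0.029 to 0.093 on the log2 scale over 6 libraries. Their log2 fold changes were -1.04, -0.87, -1.05, -1.12 and -1.10, and the measure used the same libraries as those values.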

How the data were processed

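RNA from floated P7 scWAT adipocytes was captured with oligo(dT) and read from both ends (BGISEQ-500). Alignment by the authors used mm10 and HISAT2 2.1.0, after which they sorted the reads with SAMtools and ran StringTie 1.3.5 (versions per the submitters' processing notes). They deposited unnormalized whole-number counts for each gene symbol. The annotation, the counting program and its strand setting are not given in the sources used here, so reads of overlapping genes on opposite strands may be mixed. Genotypes and replicate numbers came from the labels.

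The members and the gene lists were chosen with earlier results of these data known. Every member was named, and of the pathway lists each gene past the threshold; the 3 most abundant adipocyte and macrophage markers and the 5 nearest profiles were named by rule. *Pcx*, *Pck2*, *Gk*, *Gpd1l*, the AGPAT genes and others that did not pass were named after their values were seen.

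Counts were filtered with filterByExpr (minimum count 10, total 15; 21710 genes left out), TMM-normalized and tested with edgeR 4.0.16 in R 4.3.3 (quasi-likelihood, two-sided, Benjamini-Hochberg). Differences within a library used log2 CPM (prior count 2) and exact permutation tests. Alternatives were other size factors, DESeq2 1.42.0, limma 3.58.1 voom, other filters, a replicate block, each library left out, and, added after seeing the data, scaling to the median adipocyte marker. Exon lengths and positions came from GENCODE M21, and upstream sequences from RefSeq (GRCm38.p6). Plots were drawn in matplotlib 3.10.9 (Python 3.11.15, pandas 2.3.3). The test was checked on simulated counts for this comparison (15727 genes), where it recovered 99% of 4-fold and 72% of 2-fold changes. Of the 180 calls in the simulation 9 were false, and simulated counts with no change gave 2 calls. The data gave 2580 calls, so changes were sparser in the simulation. Replicates of a genotype differed by more than sampling noise. With 3 libraries against 3, an exact test cannot go below p = 0.1.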

Additional observations from a re-analysis of the deposited data

How the results depend on the processing

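Over the normalizations, tests and filters run (DESeq2 size factors, library size alone, upper-quartile factors, DESeq2's Wald test, limma-voom, no filter and at least 10 counts in every library), the 7 falling genes stayed past the threshold, and *Dgat1* passed in 2 of them. Of 160 values of the 10 genes under all alternatives, 121 kept direction and side of the threshold, 27 lost the call, 6 gained one and 6 reversed. The reversals all came from scaling to mature adipocyte markers. With the mean of the markers, log2 fold changes were 0.094 for *Gpam*, 0.17 for *Agpat2*, 0.33 for *Dgat1* and 0.41 for *Aqp7*, and with their median, added after seeing the data, 0.12 for *Dgat1* and 0.19 for *Aqp7*. The mean scaling shifted all genes by 0.96 and gave 11629 calls (11427 higher, 202 lower), 3 of the 10 genes and 29 pathway genes. The median scaling gave a shift of 0.75, 9471 calls (9185 higher, 286 lower), 3 of the 10 genes, 25 pathway genes and 10 adipocyte markers. TMM gave 2580 calls, 1455 higher and 1125 lower. Both scalings use all 14 markers, which sets the shift by construction. Under TMM 11 of the 14 had log2 fold changes below 0, and 6 passed as lower. The lowest was *Cfd*, at -4.14.

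Leaving out each library gave 1281 to 2845 calls, 2 to 7 of the 10 genes, 6 to 19 pathway genes, 5 to 8 adipocyte and 7 to 12 macrophage markers. The number of calls was 1290 when L1L2-FF replicate 1 was removed, 1281 for L1L2-AKO replicate 2 and 1374 for L1L2-AKO replicate 3. The cause was not tested.

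Deviations of same-numbered libraries correlated at 0.19, 0.26 and -0.05. L1L2-FF replicates 1 and 2 each correlated best with the L1L2-AKO library of the same number. For L1L2-FF replicate 3 the best was L1L2-AKO replicate 1 (0.21). These values cannot settle whether the replicate numbers pair the libraries. With the replicate block, 2514 genes, 8 of the 10 (*Dgat1* added, edgeR adjusted p = 0.0201), 13 pathway genes, 7 adipocyte and 12 macrophage markers passed. The within-library differences kept their values, with an exact permutation p of 0.25 to 0.5, where 3 pairs cannot go below 0.25.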
